A study of Arabidopsis thaliana with 82 samples.

Results

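The comparison described here sets hypocotyl tissue from above a healed graft junction against tissue from below it, 240 h after the operation, in Arabidopsis thaliana Col-0. Its members are the 2 libraries titled as grafted top and the 2 titled as grafted bottom at 240 h, 4 of the 82 RNA-seq libraries of a grafting time course, and they were chosen by title alone. Seedlings were 7 days old and grew upright on agar medium without sucrose, under 8 h of light a day at 20 °C. Every plant, the controls included, had 1 cotyledon taken off, and intact plants had no further operation. Grafted plants were cut across the hypocotyl and put together again from the top of one plant and the bottom of another, and separated plants were cut in the same way and never joined. Tops and bottoms of grafted and separated plants, and intact hypocotyls, were sampled at the same 8 times from 6 to 240 h, with 2 independent biological replicates a group. The comparison asks which transcripts still differ across the junction at the last time sampled. The sources used here give neither the number of plants in a library nor the distance from the cut at which tissue was taken.

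In an intact seedling sugar and auxin pass down the hypocotyl in the phloem and in polar transport cells, and water and nitrate pass up in the xylem. A cut stops all of these, so that supplies from the shoot pool above the wound and run short below it. Grafted hypocotyls regain phloem connection first and xylem connection later, and wounding itself turns on jasmonate synthesis and fast stress transcription factors on either side.

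Levels are given as x, the deposited library-normalised value scaled so that the median library of the series totals 1000000, and differences as log2(x + 1) of top minus bottom with limma's standard error. The pseudocount of 1 makes a difference understate the change of weakly expressed genes. Estimated depth was 8.74 to 9.11 M reads (1 M is 1000000) in the tops and 11.9 to 13.1 M in the bottoms, so that x of 1 stood for 9.92 to 13.7 reads. These estimates come from steps among low values, fitted with r of 0.897 and 0.941 in tops but 0.721 and 0.597 in bottoms. The depth of the bottoms is thus the less certain. Pearson's r between the 2 libraries of a group, across genes on the log2(x + 1) scale, was 0.980 in tops and 0.985 in bottoms. The 2 replicate numbers differed in the same sense on both sides of the junction. The summed x of 33 rapid stress genes was 6100 and 3198 in tops and 9337 and 6174 in bottoms, higher in replicate 1 of each, and that of 51 photosynthesis genes was 41650 and 57650 in tops and 51890 and 83320 in bottoms, higher in replicate 2. Of 19 markers of root hair and root tip, 12 were listed at 0 in all 4 libraries and the summed x was 11.0 to 18.9. No list of defining hypocotyl markers was used, so the labelled tissue was checked only against other cell types.

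At 240 h, 566 of 20766 genes tested (2.73%) differed between grafted tops and bottoms at an adjusted p under 0.05, 213 higher in tops (1.03%) and 353 lower (1.70%). Among them 342 differed at least 2-fold, 140 higher and 202 lower, while 19 and 27 differed at least 4-fold. The median difference was 1.10 for the genes higher in tops, -1.06 for those lower and 0.00 over all genes tested. Standard errors and p values rest on a spread pooled over all 82 libraries. With the 240 h libraries alone 11 genes were called. The 2 top and 2 bottom values did not overlap for 544 of the 566, against 8572 of all genes tested (41.3%). The calls were made from these same values, so this count describes them and adds no support. With the replicate number as a block over all conditions the count was 935, 336 higher and 599 lower, and it included all 566. With a block within grafted plants it was 1293, 466 higher and 827 lower, and it included 510 of the 566. The fits without 1 library use no block and stand against the 566. Without replicate 2 of the tops the count fell to 334, 179 higher and 155 lower, so that the excess of lower genes was lost. Without replicate 1 of the bottoms it fell to 318, 115 higher and 203 lower. Without replicate 1 of the tops 122 were called higher and 388 lower, and without replicate 2 of the bottoms 124 and 342. In all, 84 genes were called whichever of the 4 libraries was left out.

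The level in intact plants of the same age shows where a gene stood without the wound. For 234 of the 353 genes lower in tops (66.3%) the intact mean lay below both grafted means, against 37.8% of all genes tested, so that most of these genes were above the intact level on either side of the junction and further above it in the bottom. For the 213 genes higher in tops the intact mean lay above both sides for 79 (37.1%, against 42.5% of all tested), between them for 64 (30.0%, against 19.7%) and below both for 70 (32.9%). These counts describe levels and carry no test, since the tops and bottoms that chose the genes are also those set beside the intact plants.

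**Figure D1:**
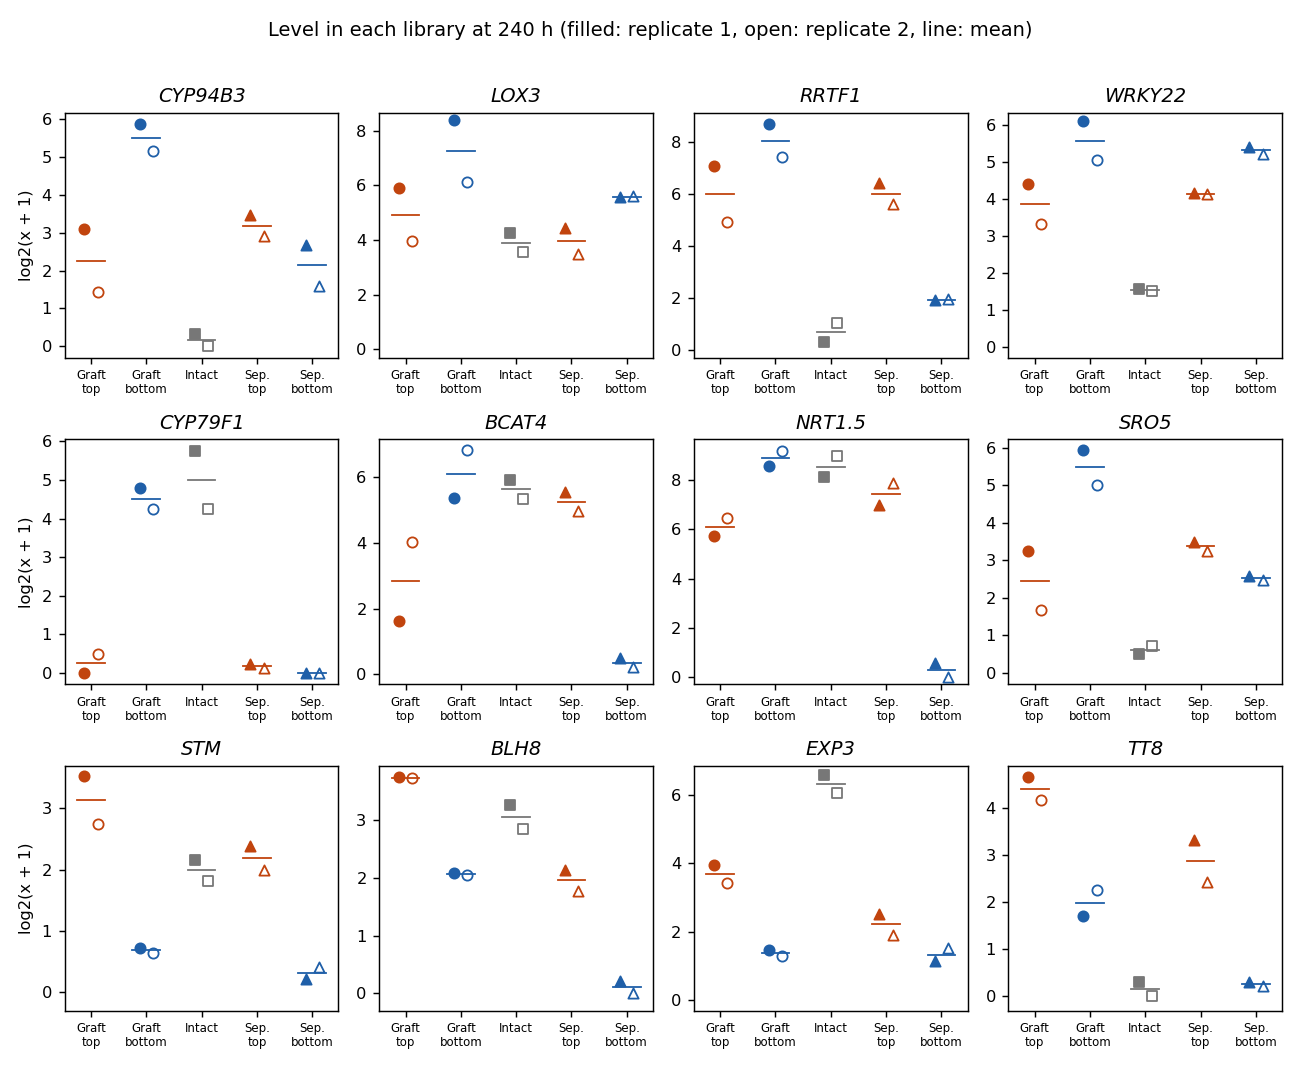
Level of 12 genes in each library at 240 h as log2(x + 1), with filled symbols for replicate 1, open symbols for replicate 2 and a line at the group mean, for grafted tops and bottoms (circles), intact hypocotyls (squares) and separated tops and bottoms (triangles). The grafted bottoms lie above the grafted tops for the 8 genes of the upper panels and below them for the 4 of the lowest row, and NRT1.5 and BCAT4 are near 0 in separated bottoms.

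Some genes of jasmonate synthesis, breakdown and repression were lower in tops. Of 35 jasmonate genes tested 6 were called lower, none higher and 29 not at all. Over all genes tested 1.70% were called lower. The list median was -0.24 against 0.00 over all genes tested. CYP94B3, which hydroxylates the active hormone jasmonoyl-isoleucine and so begins its removal (AT3G48520, chromosome 3, 17974853 to 17976774 in TAIR10.1), had x of 7.53 and 1.70 in tops and 57.3 and 34.6 in bottoms. Both bottoms were high and both tops low, and intact plants had 0.243 and 0. The difference was -3.25 ± 0.44 (n = 2 libraries a side, SE from the spread over all 82 libraries, limma adjusted p = 2.14e-06). LOX3 and LOX4, lipoxygenases of the first step of jasmonate synthesis, went with it. LOX3 (AT1G17420) was at 58.2 and 14.5 in tops and 337 and 69.0 in bottoms, a difference of -2.34 ± 0.53. Its higher top lay just under its lower bottom, and replicate 1 was above replicate 2 on each side.

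The fatty acid activating enzyme OPCL1 had a difference of -1.39 ± 0.37 (limma adjusted p = 0.0263), and the repressors JAZ7 and JAZ8 had differences of -2.02 and -1.84. These repressors bind jasmonate-responsive transcription factors and are themselves induced by the hormone. JAZ8 had x of 10.5 and 4.53 in tops, 51.6 and 14.5 in bottoms, and 0 and 0.162 in intact plants. The storage proteins VSP1 and VSP2, which mark jasmonate response in leaves, did not pass the test and pointed the other way. VSP2 was at 221 and 16.7 in tops and 13.8 and 5.34 in bottoms, which is 2.69 ± 0.89 with an adjusted p of 0.0945, and VSP1 at 46.8 and 0.890 against 2.51 and 0.567. Replicate 1 of the tops held the high value for each. LOX2, the lipoxygenase most abundant in green leaves, had 0.890 and 0.486 in tops and 7.36 and 5.42 in bottoms and was not called (adjusted p = 0.366).

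Fast stress regulators shared this direction. The rapid stress list holds 33 transcription factors and zinc finger proteins that respond within minutes to wounding or elicitors. Of these 5 were called lower in tops, against 1.70% of all genes tested, and none higher. A difference below 0 was found for 32, with a median of -0.75. The called members were WRKY22, WRKY48, WRKY53, WRKY40 and RRTF1, an ethylene response factor that is induced by oxidative stress and wounding. RRTF1 (AT4G34410) had x of 131 and 29.1 in tops and 409 and 167 in bottoms, against 0.243 and 1.05 in intact plants. Both sides of the junction were thus far above the intact level, with the bottoms highest, and the difference was -2.06 ± 0.49 (limma adjusted p = 0.0105). WRKY22, a factor of early immune signalling, was at 20.2 and 8.90 in tops and 67.3 and 32.4 in bottoms (-1.72 ± 0.33, limma adjusted p = 0.000810). WRKY48 was at 151 and 68.2 against 354 and 204, and WRKY53 at 15.9 and 4.86 against 45.8 and 16.8. Their groups did not overlap, and the higher value on each side was replicate 1. WRKY40, a repressor of defence genes and the fifth member called, was at 191 and 58.8 against 560 and 270.

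These jasmonate and stress calls changed with the libraries used. Without replicate 2 of the tops 1 jasmonate gene was called lower and 2 higher, and without replicate 1 of the bottoms 1 lower and 0 higher. The 5 rapid stress genes called lower became 0 in each of these cases. CYP94B3 kept its call without each of the 4 libraries, whereas LOX3 went to an adjusted p of 0.408 and RRTF1 to 0.468 at the highest. Within each replicate number the tops were still below the bottoms: for LOX3 the differences were -2.51 and -2.18, for RRTF1 -1.63 and -2.48, and for WRKY22 -1.69 and -1.75. With the replicate number as a block over all conditions 9 rapid stress genes were called lower and jasmonate stood at 6 lower and 1 higher. With a block within grafted plants 11 rapid stress genes were called lower, and jasmonate stood at 7 lower and 1 higher. Salicylic acid and defence genes had 2 of 17 called lower, against 1.70% of all genes tested. They were EDS16, the isochorismate synthase of salicylic acid synthesis, and the glutaredoxin GRX480. EDS16 was at 26.5 and 15.9 in tops and 34.9 and 42.9 in bottoms (-0.88 ± 0.20), close to the intact 24.0 and 22.9 in the tops. Neither gene kept its call without replicate 2 of the tops (adjusted p = 0.313 and 0.546).

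The 250 bases upstream of the annotated start are shown for RRTF1, WRKY53 and WRKY40, because rapid stress genes are known to be bound by WRKY factors at the W box. They were picked as the rapid stress genes called lower whose window holds this motif. The windows of WRKY22 and WRKY48, called lower as well, do not hold it and are not printed. Capitals mark the W box core TTGAC on either strand, which reads GTCAA where it lies on the opposite one. The sequences are of the TAIR10.1 RefSeq genome and run 5′ to 3′ on the strand of the gene.
RRTF1 (AT4G34410, chr4:16451626-16451875, plus strand): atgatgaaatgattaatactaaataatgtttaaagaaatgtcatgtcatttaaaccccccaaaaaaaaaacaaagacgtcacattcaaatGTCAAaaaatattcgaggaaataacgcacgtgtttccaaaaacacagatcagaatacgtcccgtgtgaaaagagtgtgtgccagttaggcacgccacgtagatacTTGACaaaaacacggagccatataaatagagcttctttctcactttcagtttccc
WRKY53 (AT4G23810, chr4:12393983-12394232, minus strand): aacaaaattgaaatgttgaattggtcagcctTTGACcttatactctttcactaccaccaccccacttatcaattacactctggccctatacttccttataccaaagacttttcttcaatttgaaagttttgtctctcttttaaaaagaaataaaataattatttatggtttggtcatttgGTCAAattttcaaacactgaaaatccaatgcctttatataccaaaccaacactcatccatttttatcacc
WRKY40 (AT1G80840, chr1:30383311-30383560, plus strand): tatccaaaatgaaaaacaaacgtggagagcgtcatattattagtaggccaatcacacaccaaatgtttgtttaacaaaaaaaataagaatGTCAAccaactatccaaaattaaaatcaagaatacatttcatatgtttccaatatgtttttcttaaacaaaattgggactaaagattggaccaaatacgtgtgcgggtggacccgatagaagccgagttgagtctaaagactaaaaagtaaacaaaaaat

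RRTF1 and WRKY53 held 2 cores each and WRKY40 held 1, while the letters did not occur in the window of WRKY22 or WRKY48. Over the tested genes with a readable window, 45.2% held at least 1 core, as did 52.1% of the genes lower in tops, 40.4% of those higher and 21 of the 33 rapid stress genes (63.6%). The G box CACGTG, which jasmonate-linked MYC factors bind, was in 7.33% of all windows, 9.92% of those of genes lower in tops and 7.04% of those of genes higher. The auxin element TGTCTC was in 10.6%, 7.37% and 6.57%, and the evening element AAAATATCT in 2.52%, 2.55% and 1.88%, in the same order. Motifs were searched on both strands and none contains another, and a match says only that the letters are present.

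Single transporter genes for nitrate, sulfate and organic cations differed across the junction. NRT1.5 (AT1G32450, chromosome 1, 11715147 to 11719988), which loads nitrate into the root xylem, had x of 52.0 and 87.2 in tops and 384 and 589 in bottoms. The bottoms were at the intact level of 277 and 506 and both tops were below it, a difference of -2.80 ± 0.40 (limma adjusted p = 8.31e-06) that was called without each library in turn. Of 25 nitrate genes tested 3 were called lower (against 1.70% of all genes), none higher and 22 not at all, with a list median of -0.17. NRT2.5, a high-affinity nitrate transporter of nitrogen-starved plants, was at 4.94 and 4.86 in tops and 14.2 and 15.1 in bottoms, and the cytosolic glutamine synthetase GSR2 at 160 and 167 against 254 and 259. Both genes were even within groups, yet neither was called once any 1 of the 4 libraries was left out (adjusted p 0.0596 to 0.0803 for NRT2.5 and 0.107 to 0.172 for GSR2). The other nitrate genes had differences between -0.77 and 0.49. The sulfate uptake transporter SULTR1;2 was at 5.74 and 3.80 in tops and 18.9 and 11.9 in bottoms, the 1 of 14 sulfate genes called. The sulfate list leaned the other way, with 10 members above 0, a median of 0.26 and a summed x of 4550 and 4831 in tops against 3946 and 3602 in bottoms. The difference of -1.49 for SULTR1;2 was not called without replicate 2 of the tops (adjusted p = 0.182) or replicate 1 of the bottoms (0.227). The organic cation transporter OCT1 was at 0.890 and 0.728 in tops and 15.4 and 9.95 in bottoms (-2.89, limma adjusted p = 3.41e-09), and the opposite was found for OCT3 of the same family, at 15.5 and 19.6 against 3.96 and 7.61 (1.49, limma adjusted p = 0.00230, and 0.136 without replicate 1 of the bottoms).

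Synthesis of aliphatic glucosinolates, the methionine-derived defence compounds of the cabbage family, held the lowest difference among the 566 genes called. Of 25 genes tested 6 were called lower in tops, against 1.70% of all genes tested, and none higher. The list median was -1.0 with 20 members below 0. CYP79F1 (AT1G16410, chromosome 1, 5608682 to 5612064), which converts chain-elongated methionine into aldoximes, had x of 0 and 0.405 in tops and 26.6 and 18.0 in bottoms. Bottoms were in the range of intact plants, 53.3 and 18.0, and tops were near 0, a difference of -4.27 ± 0.76 (limma adjusted p = 0.000364) called without each of the 4 libraries. BCAT4, the aminotransferase that starts the chain elongation of methionine, was at 2.10 and 15.2 in tops and 40.0 and 111 in bottoms. CYP83A1, which acts after CYP79F1, was at 9.23 and 45.1 against 77.6 and 213. IPMI2 and IIL1, the small and large subunits of the isomerase of the elongation cycle, were at 13.7 and 39.7 against 64.8 and 145, and at 158 and 272 against 312 and 644. For all of these 4 replicate 2 was the higher on each side, the reverse of the stress genes.

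The transcription factors of this pathway did not move as one. MYB29 was at 0.405 and 0.324 in tops, 4.86 and 4.69 in bottoms and 17.6 and 6.47 in intact plants (-2.08 ± 0.53, limma adjusted p = 0.0180). MYB28 was at 263 and 254 in tops and 155 and 163 in bottoms and MYB76 at 16.8 and 10.1 against 8.42 and 7.12, differences of 0.70 and 0.68 that were not called (adjusted p = 0.388 and 0.132). Without replicate 1 of the tops or replicate 2 of the bottoms 1 aliphatic glucosinolate gene, CYP79F1, stayed called, and without the other 2 libraries 6 were. BCAT4 lost its call without replicate 1 of the tops or replicate 2 of the bottoms, where its differences were -2.06 and -2.53. MYB29, even within its groups, lost its call without any 1 of the 4 libraries, with differences between -2.125 and -2.04. It was thus not among the 6 called without the other 2 libraries. With the block over all conditions 6 members were called lower, and with that within grafted plants 9 lower and 1 higher. Indole glucosinolate and camalexin genes, which start from tryptophan, had none of 20 called and a median of 0.05.

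Further genes stood out below the junction. SRO5, a relative of the stress regulator RCD1 and the 1 of 14 hypoxia genes called, had x of 8.42 and 2.19 in tops and 60.5 and 31.3 in bottoms, against 0.405 and 0.647 in intact plants (-3.03 ± 0.32, limma adjusted p = 1e-08). GAMMA-TIP, an aquaporin of the vacuolar membrane, was at 70.6 and 25.0 against 278 and 169, and COBL8, a COBRA-like protein, at 59.2 and 15.5 against 257 and 102. The gibberellin 2-oxidase GA2OX6, which inactivates gibberellins, was at 37.0 and 14.4 against 103 and 50.7, with 2.35 and 6.80 in intact plants, and was 1 of 18 gibberellin and brassinosteroid genes called. All bottoms exceeded all tops for these 4 genes, which for SRO5, GAMMA-TIP and COBL8 was a condition of their choice. SRO5 and GAMMA-TIP kept their calls without each library, while COBL8 and GA2OX6 reached adjusted p values of 0.105 and 0.376 when 1 was left out. MYB96, an activator of wax synthesis, was at 65.1 and 41.8 against 127 and 80.3, the 1 of 27 shoot epidermis and cuticle genes called, and was lost without replicate 2 of the tops (adjusted p = 0.384) or replicate 1 of the bottoms (0.417).

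Among the 15 lowest differences, which were taken only from genes whose top and bottom values do not overlap, were also 4 genes known by identifier. AT2G28780, annotated as a hydroxybenzoic acid efflux pump subunit, was at 11.5 and 23.5 in tops and 96.1 and 132 in bottoms, with 25.2 and 39.6 in intact plants. AT4G22470, of the lipid transfer protein family, was at 34.5 and 19.2 against 158 and 110, with 0.567 and 0.162 in intact plants. AT1G66090, a disease resistance gene of the TIR-NBS class, was at 15.0 and 3.97 against 68.1 and 25.4, and AT4G27654 at 7.12 and 25.6 against 101 and 58.8. Bottoms were above tops in each, and the first 2 were called without each library, while AT1G66090 and AT4G27654 reached adjusted p values of 0.272 and 0.276.

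Above the junction, some genes of the shoot meristem were higher. Of 17 meristem and organ markers tested 4 were called higher in tops, none lower and 13 not at all, with a list median of 0.38. Over all genes tested 1.03% were called higher. STM (AT1G62360, chromosome 1, 23058582 to 23062063), the homeobox factor that keeps the shoot meristem undifferentiated, had x of 10.5 and 5.66 in tops, 0.647 and 0.566 in bottoms and 3.48 and 2.51 in intact plants. Tops were thus above the intact level and bottoms below it, a difference of 2.45 ± 0.31 (limma adjusted p = 5.3e-07). BLH8 and RPL, BELL-type partners of STM in the meristem, were at 12.5 and 12.2 against 3.24 and 3.16, and at 72.6 and 72.2 against 35.3 and 31.2. LSH4, a boundary gene, was at 11.2 and 5.66 against 3.24 and 2.83. STM and BLH8 kept their calls without each library, whereas RPL was lost without any 1 of them (adjusted p 0.0581 to 0.124) and LSH4 reached 0.293. KNAT1, a related homeobox gene of stems, was at 243 and 206 against 195 and 175 and was not called. The list also marks shoot tissue that a sample could hold: its summed x was 740 and 673 in tops, 562 and 509 in bottoms and 713 and 683 in intact plants, WUS was listed at 0 in all 4 grafted libraries, and the part of apical tissue in these results was not tested. In such bulk samples fewer cells of a type and less RNA per cell cannot be told apart.

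Expansins, which loosen walls in growing cells, gave 3 genes higher in tops. They were the 3 of 31 cell wall remodelling genes called, where 1.03% of all genes tested were called higher. The list as a whole was not higher: 28 were not called, 15 had a difference above 0 and 14 below, and the median was 0.00. The summed x of the list was 3943 and 3251 in tops and 4461 and 3957 in bottoms, lower in the top within each replicate number. EXP3 (AT2G37640, chromosome 2, 15787523 to 15790139) had x of 14.3 and 9.71 in tops and 1.78 and 1.46 in bottoms, far under the 93.9 and 65.4 of intact plants on either side (2.29 ± 0.28, limma adjusted p = 3.8e-07). EXPA1 was at 118 and 95.6 against 53.0 and 27.1, with 287 and 212 in intact plants, and EXPA8 at 5.26 and 2.18 against 0.162 and 0.162. EXP3 kept its call without each library, and EXPA1 and EXPA8 lost theirs, at up to 0.412 and 0.247. The same order, intact above top above bottom, held for DGR2, a DUF642 cell wall protein, at 47.5 and 28.7 in tops and 9.79 and 2.75 in bottoms against 222 and 124. It held for P1R1, annotated as a transcription factor, at 11.1 and 16.5 against 0.809 and 2.10, with 54.5 and 34.0 in intact plants. KCS19, an enzyme of very long chain fatty acid synthesis, was at 15.9 and 12.5 against 1.86 and 2.02, with 31.3 and 21.6 in intact plants. PKS1, a substrate of phytochrome kinase in light signalling, was at 23.9 and 31.3 against 2.51 and 9.06. DGR2, P1R1, KCS19 and PKS1 were called without each library.

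Of the 15 highest differences 8 carry no symbol in the reference, AT5G17820, whose values are given with those of PME2, and 7 others. The GDSL lipase family gene AT3G16370 was at 36.8 and 35.4 in tops, 4.45 and 6.96 in bottoms and 249 and 229 in intact plants. The pectin lyase-like gene AT5G63180 was at 19.0 and 22.1 against 1.78 and 6.23, with 235 and 182 in intact plants. The oxygenase family gene AT3G46490 was at 23.1 and 22.7 against 2.83 and 5.91, with 109 and 112, and the protein kinase gene AT3G01490 at 29.6 and 29.1 against 8.34 and 4.77, with 88.6 and 68.1. All 4 again had intact plants highest and bottoms lowest. AT2G27385, of the extensin family, was at 35.9 and 53.2 against 5.10 and 10.8, AT5G22310 at 12.9 and 11.0 against 2.02 and 0.809, and the lectin family gene AT1G52100 at 23.5 and 22.7 against 6.23 and 3.97. AT5G63180 reached an adjusted p of 0.0781 without replicate 1 of the bottoms and AT1G52100 up to 0.244, and the other 5 were called without each library.

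Few auxin and cytokinin genes were called higher in tops. Of all genes tested 1.03% were called higher and 1.70% lower. LBD16, an auxin-induced regulator of lateral root founding cells, had x of 8.42 and 6.47 in tops and 2.10 and 2.27 in bottoms (1.40 ± 0.26, limma adjusted p = 0.000459) and was called without each library. It was the 1 of 21 auxin response genes and the 1 of 12 root initiation genes called, while 17 of the 21 had a difference above 0, with a median of 0.46. ABCB19, an auxin efflux transporter of the stem, was at 84.5 and 93.9 against 38.2 and 46.4, under the intact 288 and 249 on both sides, and was 1 of 18 auxin transport and synthesis genes called (1.06 ± 0.22, at most 0.0747 without 1 library). Of 18 cytokinin genes, CKX1 and CKX6, oxidases that degrade cytokinins, were called higher and IPT7, a synthesis enzyme, lower. CKX1 was at 4.13 and 7.85 against 0.728 and 1.21, CKX6 at 41.6 and 61.0 against 16.4 and 20.4, and IPT7 at 0.324 and 0 against 0.647 and 1.94. IPT7 rests on few reads, and all 3 lost their call without replicate 2 of the tops (adjusted p = 0.109, 0.127 and 0.270).

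TT8 (AT4G09820, chromosome 4, 6181881 to 6186523), the bHLH regulator of anthocyanin and proanthocyanidin synthesis, had x of 24.4 and 17.1 in tops, 2.27 and 3.80 in bottoms and 0.243 and 0 in intact plants. Its difference of 2.44 ± 0.41 (limma adjusted p = 0.000144) held without each library, and it was the 1 of 22 flavonoid and sugar-induced genes called, in a list with 18 members above 0 and a median of 0.73. In vascular lists single genes passed: ATHB-15, a factor of vascular patterning, at 138 and 147 against 101 and 88.6 among 28 cambium genes, and NAC105, a xylem vessel factor, at 12.5 and 9.71 against 3.80 and 6.07 among 43 xylem and secondary wall genes, shares near the 2.73% of all genes tested. Both lost their call when 1 library was left out (adjusted p at most 0.312 and 0.331). MLP328 and MLP329, major latex protein relatives, were the 2 of 14 root triterpene and latex protein genes called higher, against 1.03% of all genes tested. MLP328 was at 8.58 and 2.75 against 1.13 and 1.46 and kept its call, while MLP329 was at 5.91 and 0.324 against 0.566 and 0.0809, its lower top was below its higher bottom, and it was lost without replicate 1 of the tops (adjusted p = 1). The pectin methylesterase PME2 and the peroxidase-family gene AT5G17820 also rested on that library, with 53.9 and 0.0809 in tops and 0 and 0 in bottoms for PME2, and 29.9 and 0.809 against 0.728 and 0.647 for AT5G17820.

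**Figure D2:**
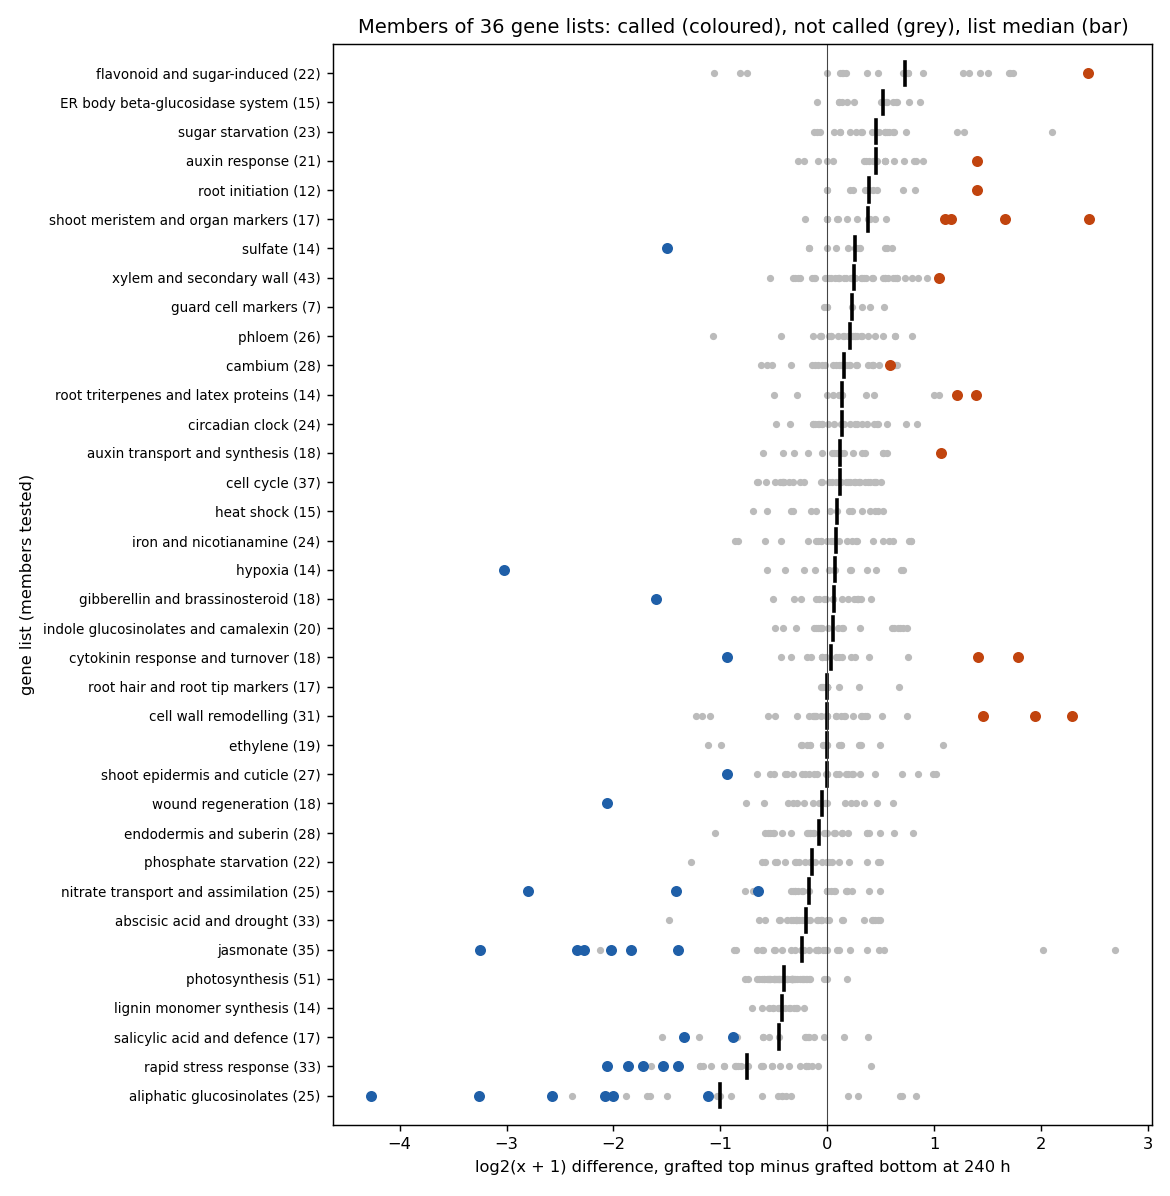
Difference in log2(x + 1) between grafted tops and bottoms at 240 h (horizontal axis) for each member tested of 36 gene lists (vertical axis, ordered by median), with called members in colour, others in grey and the list median as a black bar. The aliphatic glucosinolate, rapid stress and jasmonate lists hold most members called lower, and the shoot meristem and cell wall remodelling lists most called higher.

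The remaining lists gave 1 or no call. RRTF1 was the 1 of 18 wound regeneration genes called. In the indole glucosinolate list and the 15 lists that follow no gene was called by limma. Of the 375 members of these 16 lists 35 had an unadjusted p under 0.05 (9.33%), against 2859 of all 20766 genes tested (13.8%). The lists were set apart for having no call and all genes tested include the 566 called. The lower share was thus fixed in part by that choice and compares nothing. Lignin monomer synthesis had all 14 members below 0, between -0.70 and -0.21 with a median of -0.42, and 50 of 51 photosynthesis genes were below 0, with a median of -0.40. The summed x of the photosynthesis genes, given above, was lower in the top within each replicate number. Sugar starvation genes had 20 of 23 members above 0 with a median of 0.46, and genes of the ER body beta-glucosidase system 14 of 15 with 0.52. Phloem genes stood at 0.21, guard cell markers at 0.23, the circadian clock at 0.14, the cell cycle at 0.12, heat shock at 0.09, iron and nicotianamine at 0.08, and ethylene and root hair and root tip markers at 0.00. Endodermis and suberin genes had a median of -0.08, phosphate starvation genes -0.14 and abscisic acid and drought genes -0.20. Without replicate 2 of the tops 6 of 24 iron and nicotianamine genes were called higher, and 4 root triterpene and latex protein genes. With the replicate block 2 genes each were called higher in the auxin response, auxin transport, flavonoid and root initiation lists, and 1 ethylene gene each way. The block also gave 2 lignin genes lower, 1 gene higher each for sugar starvation, the ER body system and the shoot epidermis, and 1 gene lower each for endodermis and suberin and for cell wall remodelling. Across all lists 43 of 821 distinct genes tested were called, 16 higher and 27 lower, against 2.73% of all genes tested. A gene with no call is not shown to be equal on the 2 sides.

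The time course gave independent libraries in which the same genes could be followed. The spread of each gene came from the same fit at all times, so a gene with a small spread was more easily called at each. Calls at other times were thus not independent of those at 240 h, and the shares of all genes tested are not a matched background. Of the 213 genes higher in tops at 240 h, 61 (28.6%) were already called higher at 6 h, against 25.9% of all genes tested. The count was 73 at 12 h (34.3%, against 25.5%), 72 at 24 h (33.8%, against 28.8%) and 80 at 48 h (37.6%, against 24.6%). It was 85 at 72 h (39.9%, against 13.5%), 80 at 120 h (37.6%, against 6.30%) and 93 at 168 h (43.7%, against 2.01%). The background of all genes thus fell with time and the share of these genes did not. Of the 353 genes lower in tops, 96 (27.2%) were called lower at 6 h, against 18.9% of all tested, 119 at 12 h (33.7%, against 21.9%) and 127 at 24 h (36.0%, against 20.4%). At 48 h 170 were (48.2%, against 18.0%), at 72 h 196 (55.5%, against 13.0%), at 120 h 166 (47.0%, against 4.62%) and at 168 h 196 (55.5%, against 2.46%). The opposite call at 168 h was made for 3 of the genes higher and for 0 of those lower. Against their later direction, at 6 h, 26 of the 213 were called lower and 29 of the 353 called higher.

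**Figure D3:**
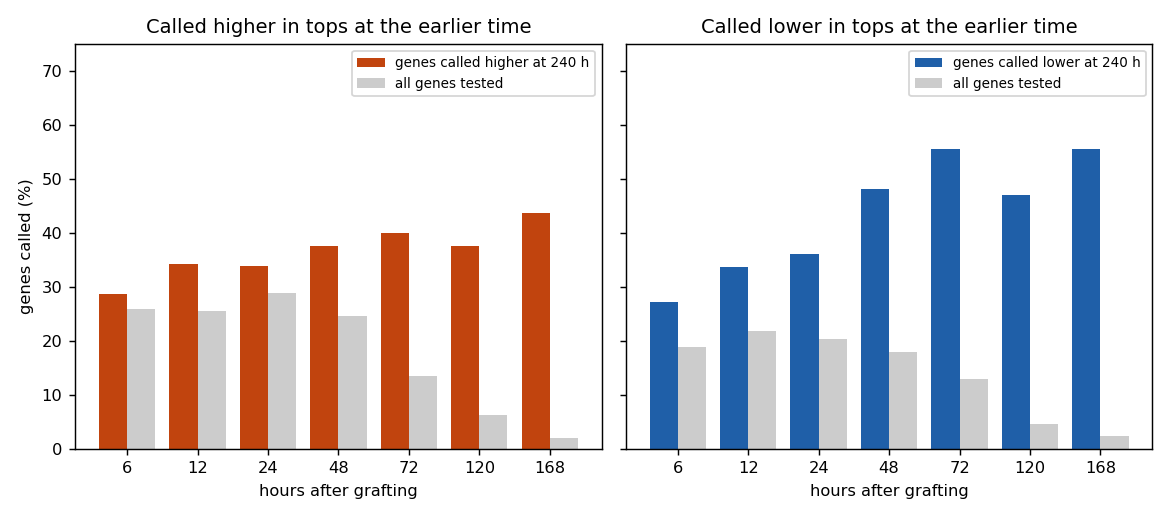
Share of genes in percent (vertical axis) called higher (left) or lower (right) in grafted tops at each earlier time in hours (horizontal axis), for the genes called in that direction at 240 h (coloured bars) and for all genes tested (grey bars). At 168 h the coloured bars reach 43.7% and 55.5% while the grey bars are at 2.01% and 2.46%.

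Differences that were called with one sign at all 8 times, and so never closed in the period sampled, were found for 42 genes, 14 higher in tops and 28 lower. Intact hypocotyls formed a single group at each time, not split into top and bottom, so whether uncut plants hold such differences was not tested. STM and BLH8 were among the 42 genes, the first with a difference of 2.54 at 6 h and 2.34 at 168 h, the second with 2.70 and 1.65. For the MATE family transporter ADS1 the difference was 2.68 at 6 h, peaked in size at 4.23 (48 h) and was 1.03 at 240 h, where x was 42.2 and 36.8 in tops and 16.5 and 21.5 in bottoms. The homeodomain gene HB33 (8.09 and 11.4 against 1.21 and 3.56 at 240 h), the sulfate transporter family gene SULTR3;2, the cytokinin oxidase CKX6, the lateral root gene LRP1 and AT3G10120 completed the 8 with the highest mean. Among the lower ones were WRKY22, the resistance gene relative HR4, the tetraspanin TET8, BAP1, an inhibitor of defence-related cell death, and AT1G10340, an ankyrin repeat protein. AT1G10340 stood at -3.01 after 6 h and -4.84 after 48 h, and at -1.44 in the end, with x of 22.5 and 9.79 in tops and 56.9 and 31.1 in bottoms. The peroxidase-family gene AT4G33420 had -3.43 at 6 h and -1.30 at 240 h, at 26.8 and 36.9 against 75.6 and 82.2. AT5G64870 and AT4G20860 completed the 8 with the lowest mean. Without 1 library at 240 h, STM, BLH8 and HB33 kept their calls and each of the other 13 named here lost its call in at least 1 case, with adjusted p values up to 0.584 for AT4G20860. With the replicate block 91 genes were called at all 8 times. A larger number, 201, were called with the same sign at 120, 168 and 240 h, 59 higher and 142 lower.

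Another 22 genes were called at 240 h in the direction opposite to that at 6, 12 and 24 h, 9 of them higher at 240 h and 13 lower. CYP83A1 and IPMI2 of the aliphatic glucosinolate pathway were higher in tops early, at 3.44 and 2.66 at 6 h, passed through 0.76 and 1.30 at 72 h and were at -2.58 and -2.01 at 240 h. The list shared this course: its median was 1.49 at 6 h and still 0.76 at 72 h, passed below zero by 120 h (-0.34), and reached -0.85 at 168 h before the -1.0 of 240 h. ATPMEPCRD, a pectin methylesterase-related gene, went from 3.24 at 24 h to -2.20 at 240 h, OPCL1 from 1.32 at 6 h to -1.39 and the ARM repeat gene AT2G05810 from 1.54 at 24 h to -1.52. The terpenoid cyclase family gene AT5G48110 made the opposite passage, from -4.92 at 12 h to 1.76 at 240 h, where x was 15.6 and 7.12 in tops and 3.64 and 1.54 in bottoms. ADF9, an actin-binding protein, went from -1.73 at 6 h to 1.50, AT3G06070 from -2.90 at 12 h to 1.71, the SAUR-like gene AT5G50760 from -2.25 at 6 h to 1.19 and AT4G13540 from -1.30 at 6 h to 1.07. From the mean of 6, 12 and 24 h to 240 h the differences of the 10 genes named here changed by between -6.24 and 6.52, a change of sign that was the reason for choosing them. At 240 h alone, ATPMEPCRD kept its call without each library and the other 9 lost it when 1 was left out, at up to 0.580 for OPCL1.

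For 54 genes the call at 240 h was the only one of the 8 times, 23 higher and 31 lower. EXPA1 and HBI1, a bHLH factor of cell elongation, had differences of 0.08 and 0.35 at 72 h, 1.05 and 0.73 at 120 h and 1.46 and 1.55 at 240 h. HBI1 had x of 56.6 and 63.9 in tops and 14.4 and 27.3 in bottoms, and 154 and 208 in intact plants. AGP2, an arabinogalactan protein, was at 12.9 and 4.53 against 35.2 and 15.5, with a difference of -0.93 at 168 h and -1.48 at 240 h. RLP40 was at 66.6 and 0.405 in tops and 0.486 and 0.0809 in bottoms, and BHLH92 at 0.809 and 0 against 7.69 and 0.728. For both genes 1 library alone was high and the groups overlapped. PME2, AT4G02850, ARCK1, AT1G51890 and AT4G28140 completed the 5 named in each direction, and each of these 10 genes lost its call without at least 1 library, at adjusted p values up to 1.

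**Figure D4:**
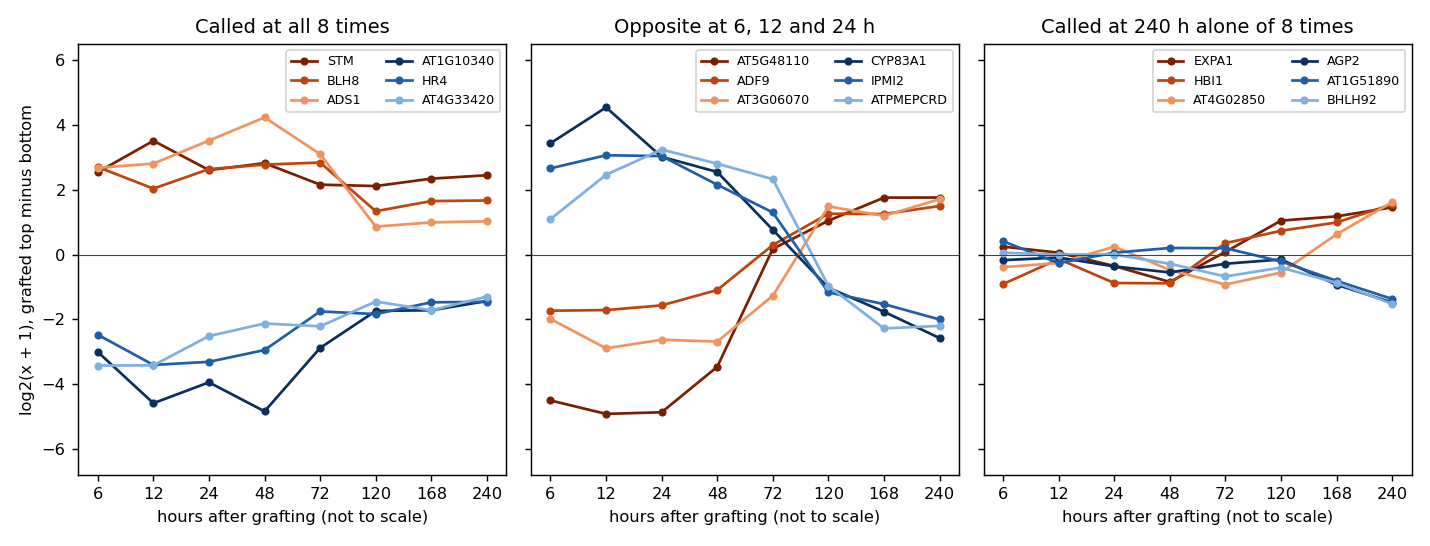
Difference in log2(x + 1) between grafted tops and bottoms (vertical axis) at 8 times in hours after grafting (horizontal axis, evenly spaced), for 6 genes called with one sign at all times, 6 called with the opposite sign at 6, 12 and 24 h, and 6 called at 240 h alone. Red lines are genes higher in tops at 240 h and blue lines genes lower. CYP83A1 falls from 3.44 to -2.58 and AT5G48110 goes from -4.50 to 1.76, crossing 0 between 48 and 120 h.

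Separated plants at 240 h, which share no library with the grafted ones but do share the fitted spread of each gene, show the same 2 sides without a junction. There 6716 genes were called higher in tops (32.3%) and 5215 lower (25.1%). Of the 213 genes higher in grafted tops 147 were also called higher in separated tops, 69.0% of the 213 and 2.19% of the 6716, and 27 (12.7%) were called lower. Of the 353 genes lower in grafted tops 138 were called lower in separated tops, 39.1% of the 353 and 2.65% of the 5215, and 128 (36.3%) were called higher, which is near the 32.3% of all genes. The median difference in separated plants was 1.27 for the first group, 0.06 for the second and 0.11 over all genes tested. STM and BLH8 were higher in separated tops as well, by 1.88 and 1.85, and the difference between grafted and separated plants was 0.57 ± 0.44 for STM and -0.18 ± 0.37 for BLH8 (limma adjusted p = 0.309 and 0.743).

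The difference of differences, grafted top minus bottom less separated top minus bottom, was called for 8996 genes (43.3%). NRT1.5 had x of 128 and 234 in separated tops and 0.486 and 0 in separated bottoms, so that its difference of 7.16 there stood against -2.80 in grafted plants. BCAT4 had 45.7 and 30.1 against 0.405 and 0.162 in separated plants. In both cases the grafted bottoms held the level of intact plants and the separated bottoms almost none. The monoterpene synthase gene TPS-CIN had 689 and 811 in separated tops and 0.243 and 0 in separated bottoms, but 52.5 and 37.9 in grafted tops and 21.0 and 19.7 in grafted bottoms, with 31.0 and 44.8 in intact plants. LNG2, a regulator of cell elongation, ran the other way, at 10.6 and 21.0 in separated tops and 133 and 190 in separated bottoms, against 47.7 and 34.5 in grafted tops and 13.4 and 12.9 in grafted bottoms. CYP79F1 had no such contrast in separated plants, where x was at most 0.162 on either side.

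**Figure D5:**
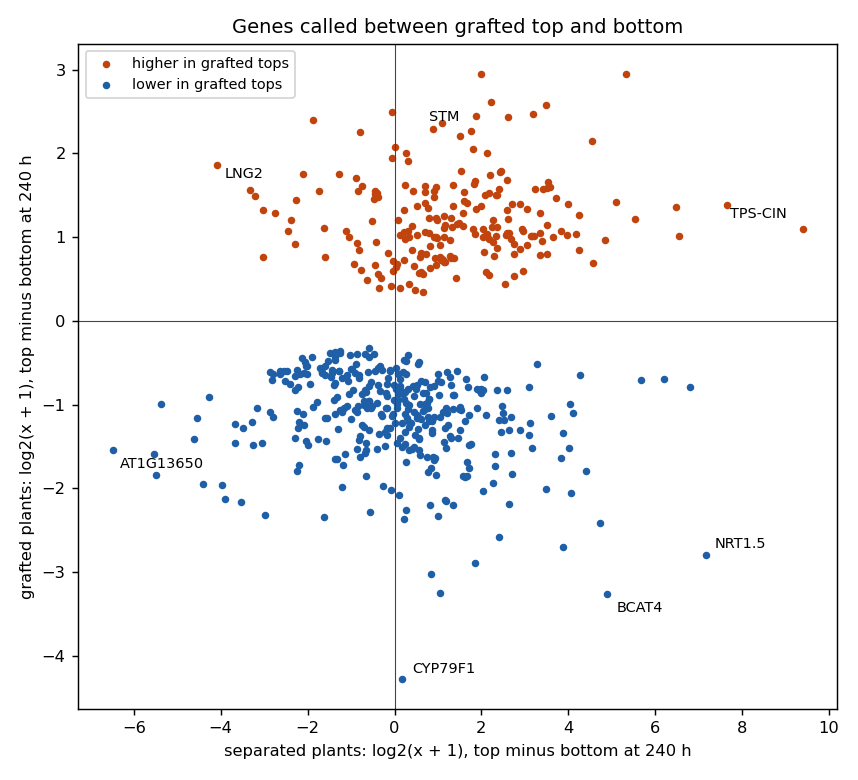
Difference in log2(x + 1) between top and bottom at 240 h in grafted plants (vertical axis) against separated plants (horizontal axis) for the 566 genes called in grafted plants, in red where higher and in blue where lower in grafted tops. NRT1.5 at 7.16 and BCAT4 at 4.90 on the horizontal axis are below 0 on the vertical one, and TPS-CIN lies at 9.39 and 1.10.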

How the data were processed

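The deposited tables hold a score per gene and library, a value the authors normalised per library and rounded to whole numbers, by a method not given in the sources used here. Reads had been trimmed and mapped before deposit with cutadapt 1.8.1 and Bowtie2, on TAIR10, going by the tool names in the submitters' processing notes. Whether counting used strand is not given, so antisense and overlapping genes and near-identical copies are uncertain. The first table was used (27416 genes, 26719 named by the TAIR10.1 reference).

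A gene entered the test if 2 or more libraries had x of 1 or more. The model, on log2(x + 1), was limma's (version 3.58.1, R 4.3.3), with 1 mean per group, all 82 libraries, 41 residual degrees of freedom, a trend, and Benjamini-Hochberg adjustment over 20766 genes. All adjusted p values are limma's. A call is an adjusted p under 0.05. The difference of differences and the contrast of 240 h with the mean of 6, 12 and 24 h, which was added after seeing the data, come from the same fit. Low values lie on steps that show what 1 read is worth, and these gave the estimated depth.

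On simulated data for this comparison, with 20766 genes, calls were made for 15 of 67 genes set to differ 1.5-fold, for 43 of 67 set to 2-fold, for 65 of 66 set to 4-fold, and for 6 of 20566 left alone. The simulated noise was normal, independent between libraries and of each gene's fitted spread, as the model assumes. It held no deviation shared by replicate number and no single outlying library. The 6 are thus not the rate of false calls in the real data.

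Pearson's r between a grafted top's and the same-numbered bottom's deviations from their group means was 0.415 at 240 h and between 0.148 and 0.506 over the 8 times. At 240 h it was 0.049 between separated tops and bottoms, 0.028 between grafted tops and intact plants, and 0.002 between grafted bottoms and intact plants. Same-numbered grafted tops and bottoms thus deviated together at 240 h, but no label says that the numbers pair libraries. What such libraries share was not tested, and r between grafted bottoms and intact plants was 0.357 at 72 h. The main fit does not use the replicate number, and neither do the fits without 1 library. Those fits leave one side with a single replicate number and the other with both. A shift between replicate numbers then enters the difference, so a call lost there is not by itself a sign of a weak difference. The block, fitted over all conditions, is given where it moves a count by over 1.5 times. A block within grafted plants gave 1293 calls at 240 h.

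The samples, the 36 gene lists (863 distinct genes) and the rules were chosen with earlier results of these data known. Named genes are the 15 highest and 15 lowest differences among called genes whose groups do not overlap and whose mean x is 5 or more, up to 4 called members per list by adjusted p, and those that lead the classes over time and against separated plants. JAZ7, WRKY40, VSP1, VSP2, LOX2, MYB28, MYB76, KNAT1 and WUS were added after their values were seen. Figures used Matplotlib 3.10.9 under Python 3.11.15. Alternatives changed the pseudocount, filter, scaling, table, trend, samples fitted, block and libraries.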

Additional observations from a re-analysis of the deposited data

Results flagged for a closer look

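The difference between top and bottom at 240 h was not the same in grafted and separated plants for 8996 genes by the test of the difference of differences. Among genes also called in grafted plants, the lowest values of this contrast were -9.96 for NRT1.5, -8.29 for TPS-CIN, -8.16 for BCAT4, -7.58 for the lipid transfer family gene AT3G58550 and -7.14 for AT4G27654. The highest were 5.94 for AT2G10940, another lipid transfer family gene, 4.94 for AT1G13650, 4.88 for LNG2, 4.71 for OCT3 and 4.38 for MLO9. AT3G58550 had x of 115 and 123 in separated tops and 0.162 and 0 in separated bottoms, against 75.5 and 65.2 in grafted tops and 139 and 106 in grafted bottoms. AT1G13650 had 0.162 and 0 in separated tops and 87.9 and 103 in separated bottoms, and at most 3.64 in the 4 grafted libraries.

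For the genes called with opposite signs early and late, the difference across the junction at 240 h was set against the mean of 6, 12 and 24 h. Going down, the change was -6.24 for CYP83A1, -4.93 for IPMI2, -4.47 for ATPMEPCRD, -3.04 for AT2G05810 and -2.48 for OPCL1. Going up, it was 6.52 for AT5G48110, 4.22 for AT3G06070, 3.17 for ADF9, 2.81 for AT5G50760 and 2.15 for AT4G13540. These genes were picked for a change of sign, so the values describe its size.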

How the results depend on the processing

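The 566 calls at 240 h became 392 with a pseudocount of 0.25, 11 with the 240 h libraries alone (5 residual degrees of freedom), 351 with grafted libraries alone, and 935 or 1293 with the replicate block over all conditions or within grafted plants. They were 318 to 510 when 1 of the 4 libraries was left out, where the lone sample is assumed to vary like the other groups, and 502 to 774 under the other 7 settings. Calls in one direction at all 8 times numbered 42, and became 64 with a pseudocount of 4, 23 with grafted libraries alone, 91 or 176 with the blocks, and 29 to 40 without 1 library. The 8996 differences of differences ranged from 7717 to 8442 without 1 library and stayed within 1.5 times everywhere. Of 95 named genes, 26 were called without each of the 4 libraries, 94 lost the call with the 240 h libraries alone, 38 with grafted libraries alone and 26 with the pseudocount of 0.25, the blocks lost 0 and 7, and none changed sign. In the simulated data a difference of 1.5-fold was mostly below what 2 libraries a side recover.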
